A study of Mus musculus with 4 samples.

Results

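The interleukin-1 axis in these fibroblasts is described through 6 genes: the cytokine Il33, the antagonist Il1rn, the receptors Il1rl1 and Il1r1, their shared partner Il1rap, and the inflammatory cytokine Il6. They were taken by symbol from the 36846 gene symbols of the deposited table, by adding up the estimated read counts of each symbol's RefSeq transcripts. All 6 were found, and all 6 passed the filter on low counts, which kept 14760 symbols. The set was selected on the measured levels of Il1rl1 and Il1rn, which showed a gap between libraries, so the values of those genes are a description and carry no test.

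RNA sequencing had been done on mouse embryonic fibroblasts (MEFs), cells grown out of embryos, with 2 libraries of wild type (WT) cells and 2 of cells that lack Dnmt3l (Dnmt3l-KO). All cells were C57BL/6 lines at passage 4, derived from embryos of day 13.5 to 14.5 whose parents were Dnmt3l+/-, and grown in medium with serum; the labels name no further allele or agent. The labels do not say whether each library is a separate embryo or line, so p-values measure only the spread between these libraries, which may be technical. Total counts per library lay between 40681328 and 51465395, and 1 gene, the ribosomal RNA precursor Rn45s, held more than 5% of each library. Dnmt3l itself, a cofactor of DNA methyltransferases, had 6 counts and 1 count in WT against 0 in the Dnmt3l-KO libraries, too few to check the labels.

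Interleukin-1 family receptors work in pairs. A ligand-binding chain, Il1r1 for interleukin-1 or Il1rl1 (also called ST2) for interleukin-33, recruits the accessory chain Il1rap, and the joined intracellular domains signal through Myd88 and IRAK kinases to NF-kB, which induces genes such as Il6. The pathway has decoys at both levels: Il1rn encodes a ligand that occupies Il1r1 without signalling, and Il1rl1 gives, besides its membrane receptor, a soluble protein that binds interleukin-33 away from the cell. Il1rl1 was first found as a gene that fibroblasts switch on after serum or oncogene stimulation, while the membrane form is best known from mast cells and type 2 lymphoid cells.

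The soluble and membrane messages of Il1rl1 part at the end of an exon on chromosome 1 of mm10 (GRCm38). Exon 8 of the membrane form ends at position 40446675 and is joined there to the next exon. In the soluble form the reading goes straight on past that position into what is otherwise intron. The stretches are shown because the choice at this point sets which protein is made. Lower case marks the last 30 bases that the forms share, capitals the 29 bases that follow in each, and the capitals of the soluble form end in its stop codon (GENCODE transcripts that the annotation pairs with RefSeq variants 1 and 2).
Il1rl1 membrane form: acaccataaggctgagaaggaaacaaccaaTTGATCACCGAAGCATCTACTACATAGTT
Il1rl1 soluble form: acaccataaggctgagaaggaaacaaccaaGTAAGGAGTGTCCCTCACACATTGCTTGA
The membrane transcript codes for 567 residues over 11 exons, and the soluble transcript for 337 residues over 8 exons.

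Il1rl1 also has more than one start. In the annotation, variants 1 and 2 begin in the same proximal first exon, variant 2 at 40439776 inside that of variant 1, and variant 3, which also codes for the soluble protein of 337 residues, begins in an exon of 61 bases further upstream. The 250 bases before the start sites of variants 3 (distal) and 1 (proximal) are printed because variant 3 did not move like variants 1 and 2 (RefSeq, GRCm38.p6, plus strand). Variant 2, the main soluble transcript, starts further on than variant 1. The bases between these starts were neither printed nor searched, so the distances and matches below do not describe the start of variant 2. Capitals mark matches to GATAA on either strand, a word that 22.6% of 32851 promoter windows of this length hold.
Il1rl1 distal, chr1:40429320-40429569: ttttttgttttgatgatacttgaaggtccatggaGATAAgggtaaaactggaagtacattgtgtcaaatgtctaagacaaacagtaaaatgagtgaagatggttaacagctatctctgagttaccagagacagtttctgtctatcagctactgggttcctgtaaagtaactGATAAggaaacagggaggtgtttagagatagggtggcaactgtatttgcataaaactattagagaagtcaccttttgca
Il1rl1 proximal, chr1:40439379-40439628: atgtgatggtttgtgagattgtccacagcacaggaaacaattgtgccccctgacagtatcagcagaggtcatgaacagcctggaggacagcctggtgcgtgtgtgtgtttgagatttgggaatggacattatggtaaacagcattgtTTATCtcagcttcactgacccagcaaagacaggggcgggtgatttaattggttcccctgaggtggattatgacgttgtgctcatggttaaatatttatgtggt
The distal window had matches to GATAA starting 216 and 79 bases before the start site, and the proximal window had 1 match, 103 bases before it. The AP-1 word TGANTCA, the NF-kB motif, TATAAA and the CArG box of serum response factor were searched on both strands in the same way, and none of these letters stood in either window. The distal window held 0 CpG dinucleotides and the proximal window 3, where 92.1% of all windows held at least 1.

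Per unit of transcript length, Il1rl1 was by far the most abundant of the 6 genes, at a mean of 121.6 FPKM over the 4 libraries (fragments scaled by transcript length and library size, as deposited). The order below it was Il1rn at 5.94 FPKM, Il1r1 at 4.17, Il1rap at 3.80, Il6 at 1.27 and Il33 at 0.0994. The ranges of Il1rn, Il1r1 and Il1rap over single libraries overlapped, so their order among themselves is not firm; Il1rl1 lay above, and Il6 and Il33 below Il1r1 and Il1rap, in each library. Message of Il1rl1, most of it of the soluble form, was thus abundant in cells whose own Il33 message was close to the floor of detection. The membrane transcript, variant 1, alone had a mean of 13.2 FPKM.

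Il33 (chromosome 19, 29925113 to 29960718), a nuclear cytokine released from damaged cells, had 15 and 9 counts in WT against 13 and 13 in Dnmt3l-KO. The levels were 0.319 and 0.216 CPM (counts scaled to a common library size, with TMM factors) against 0.260 and 0.311 CPM. The groups overlapped, and each library lay above the floor of 3 counts by a small number of reads only. The log2 fold change, Dnmt3l-KO minus WT, was 0.09 ± 0.49 (SE; edgeR's quasi-likelihood test, adjusted p = 0.999), and 2 standard errors on each side reached from -0.89 to 1.07. Its reads were too few to divide between transcripts: variant 1 had 6, 1, 3 and 13 counts in the same order of libraries.

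Il1rn (chromosome 2, 24336860 to 24351491), the receptor antagonist, was the gene with the widest gap. The WT libraries had 12.7 and 15.5 CPM and the Dnmt3l-KO libraries 2.95 and 32.1 CPM, from 598, 647, 147 and 1343 counts. The Dnmt3l-KO libraries thus bracketed WT: replicate 1 was the lowest and replicate 2 the highest of the 4, 10.9-fold apart, while the WT libraries differed 1.22-fold. For 3 of the 14760 symbols Dnmt3l-KO replicate 2 lay further above replicate 1 on the log2(CPM + 0.5) scale. The genotype means were 14.1 ± 1.98 and 17.5 ± 20.6 CPM (SD, n = 2 each), so the genotype difference was far smaller than the spread in Dnmt3l-KO. The fitted log2 fold change of 0.31 ± 1.0 (SE) rested on single libraries: it was 1.19 without Dnmt3l-KO replicate 1 and -2.26 without replicate 2. Its sign also depended on the method, being -0.64 in limma-voom and -0.22 on log2(FPKM + 1).

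Nearly all Il1rn message was of variant 1, which starts in the upstream first exon and codes for 159 residues in the annotation paired with it. The gene is known to give a secreted antagonist, made with a signal peptide, and intracellular forms without one; which product each transcript codes for was not read from protein sequence here. Variant 1 held a share of the gene's FPKM of 99.95% and 99.8% in WT and 95.3% and 99.5% in Dnmt3l-KO. Variant 2, of 178 residues and from a downstream first exon, had 0 counts in WT against 7 and 6 in Dnmt3l-KO, a few reads above the floor. The gap between the Dnmt3l-KO libraries was therefore one of variant 1, with 140 and 1337 counts. Its start site is preceded by the window below, shown because this one start accounts for the gene's signal (RefSeq, GRCm38.p6, plus strand). Capitals mark a TGANTCA match that starts 141 bases before the start site, a word found in 6.75% of all windows.
Il1rn variant 1, chr2:24336610-24336859: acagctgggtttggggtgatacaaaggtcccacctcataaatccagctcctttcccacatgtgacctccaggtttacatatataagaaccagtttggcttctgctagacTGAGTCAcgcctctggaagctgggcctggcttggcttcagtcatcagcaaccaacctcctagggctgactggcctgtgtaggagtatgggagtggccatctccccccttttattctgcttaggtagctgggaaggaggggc
The letters of the NF-kB motif, TATAAA, the CArG box and GATAA were not in that window.

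Il1rl1 (chromosome 1, 40404864 to 40465418) had 358.9 and 582.9 CPM in WT against 176.5 and 636.4 CPM in Dnmt3l-KO. The underlying counts were 16902, 24324, 8809 and 26604, so counting error is negligible beside these gaps. Again the Dnmt3l-KO libraries lay on either side of WT, with replicate 1 the lowest and replicate 2 the highest, 3.61-fold apart. The WT libraries differed 1.62-fold, with replicate 2 above replicate 1. Means were 470.9 ± 158 CPM in WT against 406.4 ± 325 CPM in Dnmt3l-KO (SD, n = 2 each), closer to each other than the libraries within either genotype. The fitted log2 fold change was -0.21 ± 0.62 (SE); it was 0.43 without Dnmt3l-KO replicate 1 and -1.42 without replicate 2. For 51 of the 14760 symbols Dnmt3l-KO replicate 2 lay further above replicate 1, and for 227 WT replicate 2 lay further above WT replicate 1.

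**Figure D1:**
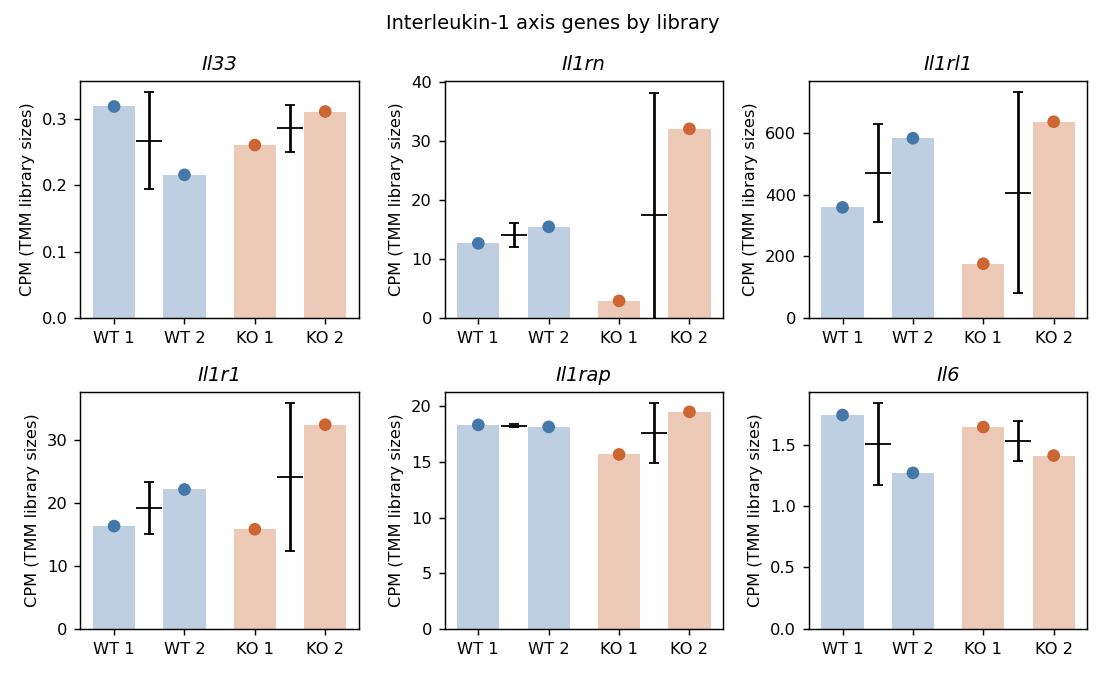
Levels of the 6 genes in each library, in CPM with TMM library sizes, on axes that start at 0; points and bars are single libraries (WT blue, Dnmt3l-KO orange), and black marks are the genotype mean with its SD (n = 2), cut at 0 for Il1rn. In Il1rn and Il1rl1 Dnmt3l-KO replicate 1 is the lowest library and replicate 2 the highest, while Il6 stays between 1.27 and 1.74 CPM.

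Most Il1rl1 message was of the soluble form in each library. Variant 2, the main soluble transcript, had 80.7 and 145.1 FPKM in WT against 36.4 and 158.2 FPKM in Dnmt3l-KO. Variant 1, the membrane transcript, had 9.65 and 17.2 FPKM in WT against 6.51 and 19.4 FPKM in Dnmt3l-KO. These transcripts kept the same order of libraries, from Dnmt3l-KO replicate 1 up through WT replicates 1 and 2 to Dnmt3l-KO replicate 2. The gap between the Dnmt3l-KO libraries was 4.34-fold for variant 2 and 2.98-fold for variant 1, and that between the WT libraries was 1.8-fold and 1.79-fold.

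Variants 2 and 3 together, the soluble forms, made up 89.2% and 88.4% of the gene's FPKM in WT and 85.5% and 88.9% in Dnmt3l-KO. The mean was 88.8% ± 0.560 in WT and 87.2% ± 2.44 in Dnmt3l-KO (SD, n = 2 each), and the groups overlapped. The membrane form made up 10.4% and 10.5% in WT and 13.8% and 10.7% in Dnmt3l-KO, the highest share being that of the library with the least Il1rl1. By estimated counts, not divided by length, the soluble share was 82.7% (Wilson 95% interval 82.1 to 83.3%) and 81.6% (81.1 to 82.0%) in WT, and 77.2% (76.3 to 78.1%) and 82.3% (81.8 to 82.7%) in Dnmt3l-KO. These intervals cover counting error only, since reads copied by PCR are not independent molecules, and the forms share most of their exons, over which the division of reads is an estimate. The 3 predicted transcripts X1, X3 and X4, which could not be assigned to a form, held 0.403 to 1.12% of the FPKM.

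Variant 3, from the distal first exon, did not follow the others. It had 386 and 52 counts in WT against 639 and 387 in Dnmt3l-KO, or 2.42, 0.400, 4.0 and 3.01 FPKM. WT replicate 2, second highest for the whole gene, was here the lowest library, and Dnmt3l-KO replicate 1, the lowest for the whole gene, was the highest. Its share of the gene's FPKM was 8.45% in Dnmt3l-KO replicate 1, against 2.60%, 0.243% and 1.66% in WT replicates 1 and 2 and Dnmt3l-KO replicate 2. At its 5′ end only the first exon of 61 bases sets variant 3 apart from variant 2. At its 3′ end it stops at 40446723, while variant 2 runs on to 40448148. In the annotation variant 3 has 1216 bases in all and variant 2 has 2661. The count of variant 3 thus depends on how shared reads were divided, which the sources used here do not describe. Whether its order of libraries reflects use of the distal start was not tested.

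**Figure D2:**
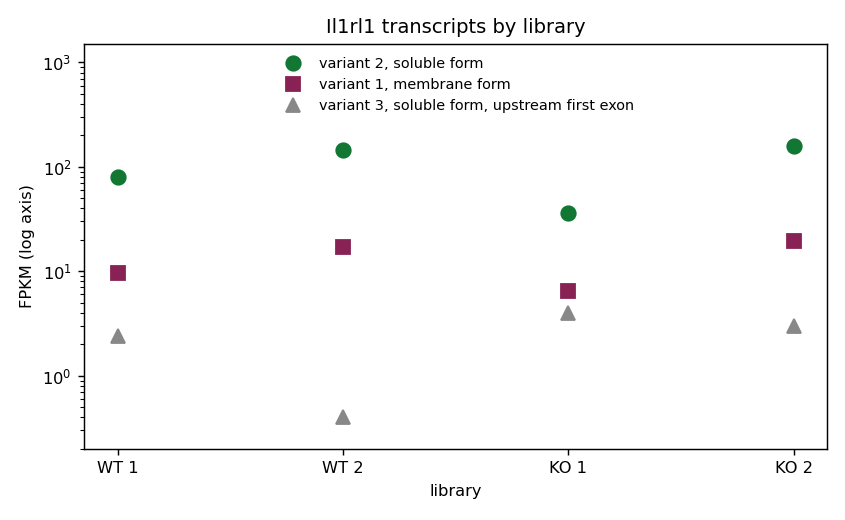
FPKM of the 3 annotated Il1rl1 transcripts in each library (log axis; each point is 1 library). Variants 1 and 2 are lowest in Dnmt3l-KO replicate 1 (6.51 and 36.4 FPKM) and highest in replicate 2 (19.4 and 158.2 FPKM), while variant 3 is highest in Dnmt3l-KO replicate 1 (4.0 FPKM).

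Il1r1 (chromosome 1, 40222480 to 40316201), the signalling receptor for interleukin-1, had 16.3 and 22.1 CPM in WT against 15.8 and 32.4 CPM in Dnmt3l-KO. Dnmt3l-KO replicate 2 was the highest library and WT replicate 2 the next, as for Il1rl1. The replicate 1 libraries could not be ordered, since Dnmt3l-KO was the lower in CPM and the higher in FPKM (2.98 against 2.95). The gap was 2.05-fold between the Dnmt3l-KO libraries and 1.36-fold between the WT libraries. The log2 fold change was 0.33 ± 0.37 (SE; edgeR adjusted p = 0.999), with 2 standard errors reaching from -0.41 to 1.07. It was 0.75 without Dnmt3l-KO replicate 1 and -0.28 without replicate 2, and in neither case past the threshold (edgeR, adjusted p = 0.354 and 0.601). Variants 1 and 2, which start in different first exons, held 553 and 158 counts in WT replicate 1 but 340 and 328 in WT replicate 2, against 372 and 227, and 689 and 273, in the Dnmt3l-KO libraries. Variant 1 was thus highest in Dnmt3l-KO replicate 2 and variant 2 in WT replicate 2.

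Il1rap (chromosome 16, 26581509 to 26730128), the accessory chain that Il1r1 and Il1rl1 share, was the most even of the receptor genes. It had 18.3 and 18.2 CPM in WT against 15.7 and 19.5 CPM in Dnmt3l-KO, a range of 1.24-fold over all libraries. The log2 fold change was -0.05 ± 0.14 (SE; edgeR adjusted p = 0.999), and 2 standard errors on each side reached from -0.33 to 0.23. Variant 1, which codes for the membrane chain of 570 residues, held 84.6 to 91.4% of its FPKM. Variant 2, which codes for a shorter protein of 360 residues, held nearly all of the rest, from 8.36% in Dnmt3l-KO replicate 2 to 15.4% in Dnmt3l-KO replicate 1. Variants 3 and 4 had 0 counts in each library.

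Il6 (chromosome 5, 30013114 to 30019975), a cytokine that fibroblasts release on interleukin-1 stimulation, had 1.74 and 1.27 CPM in WT against 1.64 and 1.41 CPM in Dnmt3l-KO, from 82, 53, 82 and 59 counts. The Dnmt3l-KO libraries lay inside the WT range. The log2 fold change was 0.02 ± 0.31 (SE; edgeR adjusted p = 0.999), with 2 standard errors reaching from -0.60 to 0.64. Unlike Il1rl1 and Il1r1, Il6 was lower in replicate 2 than in replicate 1 of both genotypes.

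Of the 4 genes not picked for the gap, 0 passed the test between genotypes in edgeR, in DESeq2's Wald test or in limma-voom, and 0 had an unadjusted p under 0.05 in edgeR. Over all tested symbols edgeR called 0.0203%, 0.0136% as higher and 0.00678% as lower in Dnmt3l-KO. Of the same 4 genes, 0 had groups that did not overlap, where 32.8% of all tested symbols were separated on either side. Their median log2 fold change was 0.05, against 0.0062 over all tested symbols.

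Il1rl1 lies in a cluster of receptor genes of the same family on chromosome 1. In order along the chromosome these are Il1r2 (a decoy receptor), Il1r1, Il1rl2 (the receptor for interleukin-36), Il1rl1, Il18r1 and Il18rap (the interleukin-18 receptor chains). Distances below run from the start of the Il1rl1 gene record, 40404864, which lies upstream of the start sites described above. Il1rl2 had 1.16 and 1.57 FPKM in WT against 0.931 and 2.36 FPKM in Dnmt3l-KO, the same order of libraries as Il1rl1, from 167, 184, 140 and 285 counts. Il18rap, 110.5 kb beyond the start of Il1rl1, had 1.84, 1.99, 1.60 and 1.81 FPKM and did not show that order. Il1r2 had 6, 6, 6 and 2 counts and Il18r1, whose start lies 60.7 kb from that of Il1rl1, had 0, 2, 1 and 4 counts; neither was tested. Within the cluster, Dnmt3l-KO replicate 2 was the highest library for Il1r1, Il1rl2 and Il1rl1, which follow each other. Dnmt3l-KO replicate 1 was the lowest for Il1rl2 and Il1rl1, but in FPKM not for Il1r1. Il18r1, the gene next beyond Il1rl1, was close to silent.

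**Figure D3:**
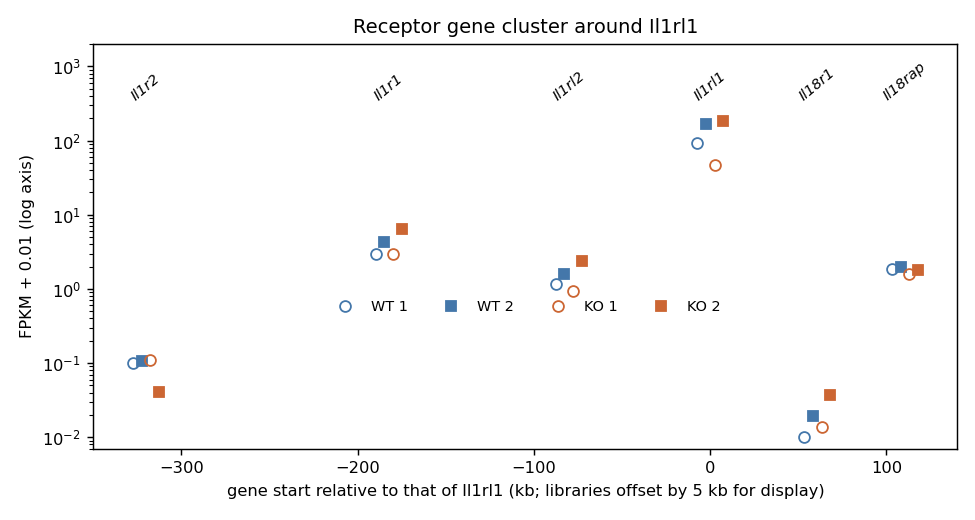
FPKM (plus 0.01, log axis) of the 6 receptor genes of the cluster in each library. Genes are placed by the distance in kb of the start of the gene record from that of Il1rl1. Il1rl1 stands far above its neighbours, and in Il1r1, Il1rl2 and Il1rl1 Dnmt3l-KO replicate 2 (filled orange square) is the highest point.

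The rest of the pathway was examined through lists of textbook members. Over 14 lists, marker lists of cell types included, 118 distinct genes were tested; 0 passed in edgeR and 0 in DESeq2, and 5 had an unadjusted p under 0.05 in edgeR, or 4.24%, against 4.15% of all tested symbols. Il1rn and Il1rl1 are among the 118 genes. They were picked for the gap between libraries, so their not passing is a description and no test outcome. No adjusted p below 0.999 was found among the list genes named here (edgeR).

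Of 10 listed ligands of the family, 3 passed the filter on low counts: Il1rn, Il33 and Il18. Il18, activated by caspase-1, had 0.616 and 0.575 CPM in WT against 0.461 and 0.933 CPM in Dnmt3l-KO. Il1b, the main secreted agonist of Il1r1, had 0 counts in each library, which allows up to 0.0583 to 0.0737 CPM per library at the floor of 3 counts. Il1a, the other agonist, had 1 count in all. The receptor list of 11 genes also holds Il18bp, a secreted binding protein of interleukin-18. Of these 11, 7 passed the filter, among them Il1rl1. Of the 6 others, 1 had both Dnmt3l-KO libraries above WT and 1 had both below. Of all tested symbols 16.2% and 16.5% were so placed. These were Il1rapl1, a relative of Il1rap best known from neurons (0.212 and 0.407 against 0.461 and 0.646 CPM), and Il18rap (10.3 and 10.3 against 8.10 and 9.30 CPM). Of all tested symbols 50.7% were higher in Dnmt3l-KO replicate 2 than in replicate 1. Leaving out Il1rl1, which was picked for this gap, 6 of 6 genes of the list were. Their median difference was 0.58 on the log2(CPM + 0.5) scale, against 0.0046 for all tested symbols. That median includes Il18bp, which is not a receptor, at 0.85. In WT 4 of those 6 were higher in replicate 2, by a median of 0.17, where 50.1% of all tested symbols were higher.

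The intracellular relay was mixed between the Dnmt3l-KO libraries, and its difference from the receptor list was not tested. All 18 listed genes from Myd88 to the IKK complex were tested between genotypes, at a median log2 fold change of -0.03. Of these, 7 were higher in Dnmt3l-KO replicate 2 than in replicate 1, where 50.7% of all tested symbols were. The median difference of the list between these libraries was -0.09. Irak2, a kinase family member of the relay, had 44.1 CPM in Dnmt3l-KO replicate 1 and 22.9 in replicate 2, whereas Irak3, its inhibitory relative, had 2.08 and 3.21 CPM. Myd88, the adaptor of the receptor pair, had 15.9 and 15.5 CPM in WT against 14.7 and 18.1 CPM in Dnmt3l-KO. Ube2n, which builds the ubiquitin chains of this pathway, had 109 and 106.6 CPM in WT against 94.6 and 89.1 CPM in Dnmt3l-KO, which is -0.23 ± 0.09 on the log2 scale (SE; edgeR adjusted p = 0.999). Ikbkg, the regulatory subunit of the IKK complex, was placed likewise (65.0 and 61.5 against 57.1 and 52.2 CPM). Ube2v1, the partner of Ube2n and the most abundant of the list, had 152.9 and 152 CPM in WT against 181.9 and 154 CPM in Dnmt3l-KO.

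Among 12 NF-kB factors and inhibitors, 3 had both Dnmt3l-KO libraries above WT and 0 below (16.2% and 16.5% of all tested symbols), with a median log2 fold change of 0.08. In Dnmt3l-KO 9 of 12 were higher in replicate 2 than in replicate 1, with a median difference of 0.11 over the list. In WT 4 of 12 were higher in replicate 2. Of all tested symbols 50.7% in Dnmt3l-KO and 50.1% in WT were. Bcl3, an atypical inhibitor family member, had 0.802 and 3.68 CPM in the Dnmt3l-KO libraries, while Tnfaip3 went the other way with 11.8 and 5.76 CPM. Rela, the activating subunit, had 50.7 and 48.4 CPM in WT against 58.1 and 49.9 CPM in Dnmt3l-KO. Nfkb2 (43.1 and 41.3 against 44.1 and 48.8 CPM in Dnmt3l-KO) and the inhibitor Nfkbib (9.92 and 9.97 against 12.5 and 11.4 CPM) were among the 3; the third was the inhibitor Tnip1.

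Of 25 genes listed as targets of interleukin-1 and NF-kB, 19 were tested, 1 with both Dnmt3l-KO libraries above WT (Zc3h12a) and 5 below (Ccl2, Ccl7, Cxcl10, Lif and Mmp13), where 16.2% and 16.5% of all tested symbols were so placed, at a median log2 fold change of -0.13. Ccl2, a chemokine for monocytes, had 43.3 and 51.4 CPM in WT against 29.9 and 32.0 CPM in Dnmt3l-KO, which is -0.61 ± 0.12 on the log2 scale (SE; edgeR adjusted p = 0.999). Cxcl10, also an interferon target, had 0.892 and 1.37 CPM in WT against 0.561 and 0.502 CPM in Dnmt3l-KO, or -1.08 ± 0.39 on the log2 scale (SE; edgeR adjusted p = 0.999). Ptgs2, the inducible prostaglandin synthase, had 454 and 476 CPM in WT against 560.1 and 265.6 CPM in Dnmt3l-KO. It was lower in Dnmt3l-KO replicate 2 than in replicate 1, the reverse of Il1rl1. Over the list, 11 of 19 genes were higher in Dnmt3l-KO replicate 2, with a median difference of 0.09, where 50.7% of all tested symbols were higher. On the log2(CPM + 0.5) scale, 3 genes (Cxcl1, Cxcl5 and Mmp3) were more than 2-fold higher in replicate 2, the direction of Il1rl1. Ptgs2 was the 1 gene more than 2-fold lower.

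The list of the interleukin-6 receptor family, which signals through Il6st, holds ligands, kinases and downstream factors besides receptor chains. Its genes were mostly higher in Dnmt3l-KO replicate 2. Of 16 genes tested, 15 were higher in replicate 2 than in replicate 1, by a median of 0.47, where 50.7% of all tested symbols were higher. In WT 11 of 16 were higher in replicate 2, by a median of 0.15, where 50.1% of all tested symbols were higher. Il6st had 222.1 and 239.8 CPM in WT against 182 and 380.4 CPM in Dnmt3l-KO, again with the Dnmt3l-KO libraries on either side of WT. Socs3, a feedback inhibitor of that receptor, had 17.6 and 21.1 CPM in WT against 8.74 and 35.7 CPM in Dnmt3l-KO, and was named after its values had been seen. Between genotypes the median was 0.15, with 1 gene above (16.2% of all tested symbols were), Tyk2 (20.1 and 21.8 against 22.2 and 24.8 CPM), and 1 below (16.5%), Lif. Il11, a cytokine of the family, had 6.5, 8.87, 6.97 and 4.93 CPM and was the gene of the 16 that was lower in Dnmt3l-KO replicate 2.

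Of the proteases and inflammasome genes that process the family's ligands, 9 of 18 were tested, at a median log2 fold change of -0.01. Capn2, a calpain, was the most abundant, at 528.9 and 506.6 CPM in WT against 644.5 and 458.3 CPM in Dnmt3l-KO. Gsdmd, the pore protein through which mature interleukin-1 leaves cells, had 4.71, 4.6, 3.41 and 4.64 CPM in the same order.

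The factors of the serum response, through which Il1rl1 was first found, had a median log2 fold change of 0.17, with 3 of 10 genes above WT in both Dnmt3l-KO libraries and 0 below (16.2% and 16.5% of all tested symbols). Myc had 29.7 and 28.8 CPM in WT against 47.3 and 34.8 CPM in Dnmt3l-KO, and Fosb had 1.17 and 1.32 against 1.86 and 1.79 CPM; the third was Jun. Fosl2, the most abundant, had 208.3 and 240.3 CPM in WT against 233.4 and 269.6 CPM in Dnmt3l-KO. Their median difference between the Dnmt3l-KO libraries was 0.13, and 6 of 10 were higher in replicate 2, where 50.7% of all tested symbols were.

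**Figure D4:**
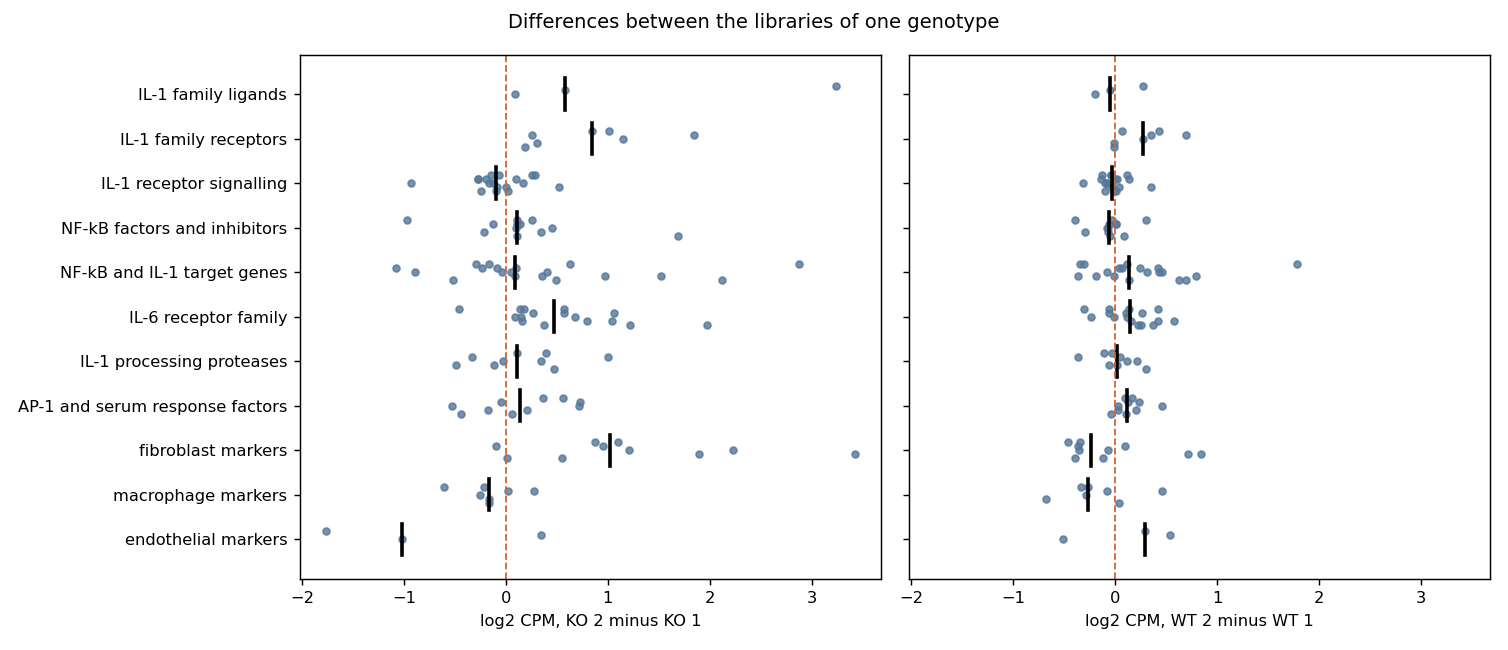
Difference in log2(CPM + 0.5) between the libraries of one genotype, replicate 2 minus replicate 1, for each tested gene (points) of the lists with at least 3 tested members; left Dnmt3l-KO, right WT. Black bars are list medians and the dashed line is the median of all tested symbols. In Dnmt3l-KO the medians of the IL-6 receptor family list (0.47) and the fibroblast markers (1.03) lie to the right. That of the endothelial markers (-1.02) lies to the left. The ligand and receptor lists include Il1rn and Il1rl1, picked for this gap.

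**Figure D5:**
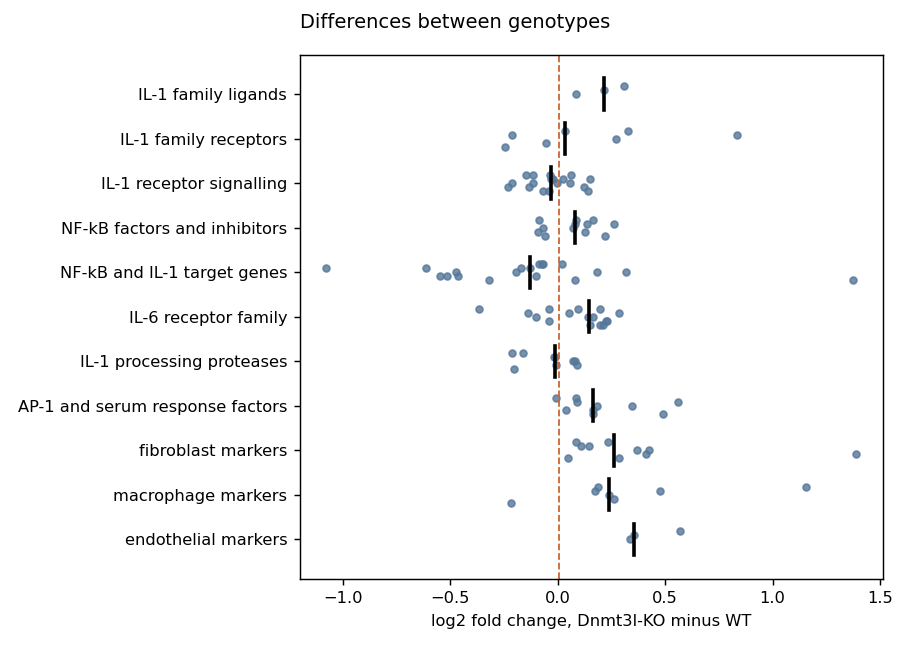
Log2 fold change between genotypes, Dnmt3l-KO minus WT, from edgeR for each tested gene (points) of the same lists, with list medians (black bars) and the median of all tested symbols (dashed). The list medians lie between -0.13 and 0.35, and 0 of the genes shown passed the test. The ligand and receptor lists include Il1rn and Il1rl1, picked for the gap between libraries, so their not passing is no test outcome.

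The libraries between which the axis genes differed also differed in markers of cell type. Fibroblast markers were at 16354 to 19539 CPM in sum in WT, and at 18173 and 23414 CPM in Dnmt3l-KO. Singly, 9 of 10 were higher in Dnmt3l-KO replicate 2 than in replicate 1, where 50.7% of all tested symbols were. The median difference was 1.03 on the log2(CPM + 0.5) scale, and 5 of the markers were higher by more than 1. In WT 3 of 10 were higher in replicate 2, at a median of -0.23, where 50.1% of all tested symbols were higher. Lum, a matrix proteoglycan, had 1.19 and 2.54 CPM in WT against 0.421 and 9.38 CPM in Dnmt3l-KO, and Dcn, its relative decorin, had 4.80, 4.55, 3.61 and 8.97 CPM. Fn1, the matrix protein fibronectin and the most abundant marker, had 7826 and 7865 CPM in the Dnmt3l-KO libraries and was close to equal in them.

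Of 3 tested endothelial markers 1 was higher in Dnmt3l-KO replicate 2, where 50.7% of all tested symbols were. All 7 listed stood at 8.77 to 10.4 CPM in sum in WT, 20.4 CPM in Dnmt3l-KO replicate 1 and 6.75 CPM in replicate 2. Most of that was Kdr, a receptor for vascular growth factor (6.71, 8.36, 17.5 and 4.81 CPM), while the defining markers Pecam1 and Cdh5 reached at most 0.191 and 0.241 CPM. Emcn had 1.62 and 0.550 CPM in Dnmt3l-KO, while Tek went against that order with 0.741 and 1.08 CPM. Of 9 mast cell markers 5 were at 0 in each library, among them the proteases Cpa3, Mcpt4 and Tpsb2; the sum, 11.1 to 14.6 CPM in WT against 16.7 to 20.3 CPM in Dnmt3l-KO, was nearly all Gata2, a factor not limited to mast cells, while Kit stayed at 0.260 CPM or below. Among 8 lymphoid markers, Cd3e, Cd4 and Foxp3 were at 0, and the sum of 6.46 to 7.76 CPM in WT against 8.32 to 13.1 CPM in Dnmt3l-KO was mostly Gata3, with Ptprc at 0.192 to 0.340 CPM. Macrophage markers summed to 10.0 to 11.9 CPM in WT against 11.7 to 13.3 CPM in Dnmt3l-KO, led by Lyz2, with Tyrobp at 0.216 to 0.882 and Mrc1 at 0.455 to 0.789 CPM. Epithelial markers summed to 5.80 to 7.62 CPM in WT against 3.97 to 5.83 CPM in Dnmt3l-KO, nearly all Krt18. The part that a different makeup of the cultures has in the levels of Il1rl1 and Il1rn was not tested, and in bulk RNA fewer cells of a type and less RNA per cell cannot be told apart.

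Other genes shared the profile of Il1rl1 over the 4 libraries. Likeness was taken as the root mean square difference between centred log2(CPM + 0.5) profiles, and the nearest of the tested symbols was Sod3, an extracellular superoxide dismutase, at 0.067. Sod3 had 14.7 and 22.2 CPM in WT against 7.23 and 27.1 CPM in Dnmt3l-KO. Next came Gdf5, a growth factor of the BMP family, at 0.13 (2.36, 5.2, 1.08 and 5.84 CPM), A4galt, a glycosyltransferase, at 0.14 (8.92, 14.4, 4.45 and 20.2 CPM), and Enpp2, the secreted enzyme autotaxin, at 0.14 (6.69, 11.2, 3.77 and 15.1 CPM). The fifth was Wisp2, a secreted CCN family protein, also at 0.14, with 110 and 148 CPM in WT against 51.6 and 210.8 CPM in Dnmt3l-KO. These likenesses over 4 libraries are a description, with no test.

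The nearest profiles to that of Il1rn were less close. The first was Mrgprf, an orphan receptor, at a root mean square difference of 0.23, with 11.2 and 15.6 CPM in WT against 4.07 and 29.6 CPM in Dnmt3l-KO. Erg, a transcription factor of the ETS family known from endothelium and cartilage, followed at 0.26 (1.53, 3.04, 0.361 and 6.29 CPM), then Jmjd7 at 0.30, which had no read in Dnmt3l-KO replicate 1. The remaining ones were Eln, which encodes elastin, at 0.31 (5.73, 6.73, 2.2 and 17.5 CPM) and the integrin gene Itgb8 at 0.35 (5.41, 6.69, 2.24 and 15.0 CPM). Over all tested symbols, 3.61% differed more than 2-fold on that scale between the Dnmt3l-KO libraries and 0.928% between the WT libraries.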

How the data were processed

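The submitters' processing notes name mm10 and the tools TopHat2 2.0.12, Cufflinks 2.2.1, eXpress 1.4.1, DESeq2 1.8.0; what each did is not stated in the sources read. The table as deposited, per its file headers, has the authors' estimated counts and FPKM values for every RefSeq transcript and library. It also holds the authors' deposited comparison: a mean signal, log2 fold change and error, score and p-value, from which no result was taken. Estimated counts were summed per symbol, rounded, and fitted in edgeR 4.0.16 under R 4.3.3: quasi-likelihood, robust, TMM, filterByExpr, no replicate term. Benjamini-Hochberg adjustment covered 14760 symbols, with a threshold of 0.05. A standard error is the log2 fold change divided by the root of F. Tested on simulated data for this comparison (14760 genes), the fit recovered 16% of 50 genes changed 1.5-fold. It recovered 64% of 50 genes changed 2-fold and 82% of 50 changed 4-fold, with 6 false calls among 136. Each simulated gene had the spread typical of its level, so recovery for genes of wider spread, such as Il1rn and Il1rl1, was not measured. Transcripts were matched to GENCODE M21 models through its RefSeq table. Gene positions and promoters are RefSeq's for GRCm38.p6 (all 6 genes matched).

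Genes named from a list are its most abundant member and up to 2 more with the smallest p, besides the 5 nearest profiles to Il1rl1 and to Il1rn. Il1rl2, Il1a, Il1b, Myd88, Irak2, Irak3, Bcl3, Socs3, Pecam1, Cdh5 and genes that make up small counts were added after their values were seen. Il18bp, Tnfaip3, Cxcl1, Cxcl5 and Mmp3 were likewise added. Members and lists were chosen with earlier results of these data known. Alternatives were DESeq2 1.42.0, limma 3.58.1, other scalings, filters and pseudocounts, a replicate block, and leaving out each library. No protein sequence is printed, and some listed genes are not reported here.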

Additional observations from a re-analysis of the deposited data

How the results depend on the processing

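With 2 libraries per genotype each fold change hangs on single libraries. Leaving out 1 library at a time, log2 fold changes ran from -0.16 to 0.40 for Il33, -0.19 to 0.27 for Il6, -0.22 to 0.094 for Il1rap, -0.28 to 0.75 for Il1r1, -1.42 to 0.43 for Il1rl1 and -2.26 to 1.19 for Il1rn. Direction turned for Il33 when WT replicate 2 (-0.16) or Dnmt3l-KO replicate 2 (-0.04) was left out, for Il6 when WT replicate 2 (-0.19) or Dnmt3l-KO replicate 1 (-0.10) was, for Il1rap with Dnmt3l-KO replicate 1 left out (0.094) and for Il1r1 with Dnmt3l-KO replicate 2 left out (-0.28). It also turned for Il1rl1 with WT replicate 2 (0.18) or Dnmt3l-KO replicate 1 (0.43) left out, and for Il1rn with Dnmt3l-KO replicate 2 left out (-2.26). Il1rn was negative too in limma-voom (-0.64) and on log2(FPKM + 1) (-0.22) and log2(FPKM + 0.1) (-0.44). In none of the alternatives that gave a value did Il33, Il6, Il1rap or Il1r1 pass the threshold. Il33 gave no value in both filtered FPKM fits.

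The number of genes called, 3, was 31 in DESeq2, 8 without a filter on low counts, 8 with limma on log2(FPKM + 1), 6 on log2(FPKM + 0.1) and 1 on log2(FPKM + 1) unfiltered, and 2 to 6 leaving out 1 library. List genes called stayed at 0 in each alternative with all libraries. Il1rn and Il1rl1 are among the list genes and, as picked genes, carry no test. With transcripts as features, variant 3 of Il1rl1 gave 1.22, against -0.21 for the gene; its construction divides the gene's reads. The soluble share, a mean of 88.0% over libraries, was 87.6 to 88.8% leaving out 1 library and 80.9% by counts not divided by length.

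Same-numbered replicates share only a number by the labels, and across genes their deviations from the group means had r = 0.0999. With a replicate block, 4 genes were called, and log2 fold changes were 0.10 for Il33, -0.44 for Il1rn, -0.45 for Il1rl1, 0.26 for Il1r1, -0.06 for Il1rap and 0.03 for Il6. The causes of these shifts were not tested.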
